A study of Sus scrofa with 5 samples.

Results

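The miRNAs of imprinted loci were followed across small RNA libraries of pig blastocysts, embryonic stem cell-like (ES-like) cells, embryoid bodies (PEBs) and fetal fibroblasts (PFFs). Members were chosen by name, with earlier results of these data known: a mature pig miRNA belonged when its number is that of a miRNA hairpin known in mammals from the DLK1-DIO3, H19, IGF2, MEST or GNAS locus. Of 39 such numbers, 17 had a row in the table of reported miRNAs, and these gave 23 mature names from 19 hairpins, out of 411 mature names in all. The DLK1-DIO3 locus held 20 of the 23 names, from 17 hairpins. MEST was represented by ssc-miR-335, and GNAS by both arms of ssc-miR-296. The numbers of H19 (miR-675) and IGF2 (miR-483) had no row in the table used here, so neither locus was analysed here. No sequence is printed, because none of the files used here held the mature sequences of these names.

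Both blastocyst libraries (BL_1 and BL_2) were made from pools of day 7 embryos, which developed from oocytes activated by an electric pulse in place of sperm. Such parthenogenetic embryos carry maternal chromosomes only. The ES-like cells were a line from in vitro-produced blastocysts grown with stem cell factor and basic fibroblast growth factor on mouse embryonic fibroblast feeder cells, and whether those blastocysts were parthenogenetic or fertilised was not given in the sources used here. PEBs were aggregated from the ES-like cells in hanging drops without the cytokines, off the feeder layer. PFFs were grown from the trunk of fetuses obtained by artificial insemination, after head, limbs and inner organs had been taken away. BLs were represented by 2 libraries and the other types by 1 each, so no replicate stands behind a difference among the cultured types.

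In imprinted loci, only the copy inherited from the mother or only that from the father is active, according to methylation set in the germ line. At DLK1-DIO3, the protein-coding genes DLK1, RTL1 and DIO3 are read from the paternal copy, while long non-coding transcripts that start at MEG3 are read from the maternal copy and are cut into a large number of miRNAs. In mouse induced pluripotent lines, silence of this maternal transcript is known to go with poor contribution to chimaeras. MEST, which holds miR-335 in an intron, is read from the paternal copy, and in the mouse miR-296 comes from the paternally read antisense transcript of the GNAS locus. These parental origins are background from human and mouse. No read carries a mark of the copy it came from, but in the parthenogenetic BLs every copy is maternal. In the RefSeq annotation of Sscrofa11.1, which held 9 of the 19 hairpins, the order on chromosome 7 was DLK1, MEG3, MIR493 and RTL1, with MIR127, MIR432 and MIR136 inside RTL1. The same annotation placed MIR335 inside MEST on chromosome 18, and MIR296 beside GNAS on chromosome 17. The authors' reads were aligned to another build, Sscrofa10.2, so no coordinates are given.

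The depth, as mature miRNA reads, was 113743 for BL_1 and 2782132 for BL_2. It was 6372289 for the ES-like library, 15849142 for PEBs and 27071028 for PFFs. Levels are given as reads per 1000000 mature miRNA reads (RPM), with exact (Clopper-Pearson) 95% intervals that cover counting error only, since reads of amplified libraries are not independent molecules. The limit set for a miRNA without a read was the level of 3 reads, which is 26.4 RPM in BL_1, 1.08 RPM in BL_2, 0.471 RPM in ES-like cells, 0.189 RPM in PEBs and 0.111 RPM in PFFs, a little under the upper end of the exact interval. As a check of the labels, ssc-miR-371-5p, a miRNA of early embryos, stood at 324635 RPM in BL_1 and 296149 RPM in BL_2 but at 30.9 RPM in ES-like cells. A mesenchymal list (miR-199a, miR-199b, miR-214, miR-143 and miR-145) has 7 names, of which miR-199a-3p and miR-199b-3p had nearly identical counts, so miR-199b-3p was left out of the sum, a choice made after seeing the data. The other 6 names summed to 264 RPM in BL_1, 218 RPM in BL_2, 58017 RPM in ES-like cells, 131752 RPM in PEBs and 182209 RPM in PFFs. The read summary of the study gives the mature totals of ES-like cells and PFFs the other way round. In the columns as labelled, miR-143-3p, a miRNA of fibroblasts and smooth muscle, stood at 101510 RPM in PFFs, 17918 RPM in PEBs and 13227 RPM in ES-like cells. ES-like cells lay far from BLs on both lists, and the mouse feeder cells of that culture cannot be told apart from pig cells where a mature sequence is shared. In samples of mixed cells, fewer cells of a type and less RNA per cell cannot be told apart.

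As a sum, DLK1-DIO3 miRNAs were scarce in parthenogenetic BLs and more abundant in each cultured library, while the GNAS sum was highest in BLs. Not every name followed its sum. For example, miR-432-5p and miR-493-3p were lower in ES-like cells and PEBs than in BL_2. Summed over its 20 names, the DLK1-DIO3 locus had 8 reads in BL_1, or 70.3 RPM (30.4 to 139), and 330 reads in BL_2, or 119 RPM (106 to 132). It had 4958 reads or 778 RPM (757 to 800) in ES-like cells, 26144 reads or 1650 RPM (1630 to 1670) in PEBs and 27547 reads or 1018 RPM (1006 to 1030) in PFFs. Both BL libraries lay below the 3 cultured libraries, and the intervals of BL_1 and BL_2 overlapped. Relative to BL_2, the deeper BL library, the sum was 6.56-fold for the ES-like library (5.87 to 7.36), 13.9-fold for PEBs (12.5 to 15.5) and 8.58-fold for PFFs (7.70 to 9.59) by RPM. With TMM these ratios were 3.78, 11.9 and 12.7. The mesenchymal list was also lowest in both BL libraries, and its part in this difference was not tested.

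The side read from the paternal copy in human or mouse did not move as a block. miR-296, which in mouse ES cells is reported to target the coding sequence of Nanog, had its highest levels in the embryos. Its 3p arm stood at 1319 RPM in BL_1, 825 RPM in BL_2, 607 RPM in ES-like cells, 459 RPM in PEBs and 273.5 RPM in PFFs. Each cultured library was below both BL libraries for this name, as it was for 18.0% of the 305 miRNAs with at least 10 reads in any library. The order among the cultured libraries depended on the scale, and with TMM the summed GNAS level was 1.14 times as high in PEBs as in the ES-like library. The 5p arm of the same hairpin had another order, with 8.79 RPM in BL_1 (a single read), 19.1 RPM in BL_2, 54.6 RPM in ES-like cells, 49.0 RPM in PEBs and 10.9 RPM in PFFs. miR-335, made from the MEST intron and known as a regulator of SOX4 and tenascin C in human tumour cells, had 1 read in BL_1 (8.79 RPM), 33 in BL_2 (11.9 RPM), 158 in ES-like cells (24.8 RPM), 1320 in PEBs (83.3 RPM) and 892 in PFFs (33.0 RPM). The MEST miRNA thus had its lowest levels in BLs and its highest in PEBs, though the single read of BL_1 left the ratio of ES-like cells to BL_1 between 0.499 and 112. ES-like cells were at 2.09 times the level of BL_2 by RPM (1.43 to 3.14), but at 1.21 times with TMM (0.824 to 1.81). PEBs were at 2.53 times the level of PFFs by RPM and at 1.45 times with TMM.

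**Figure D1:**
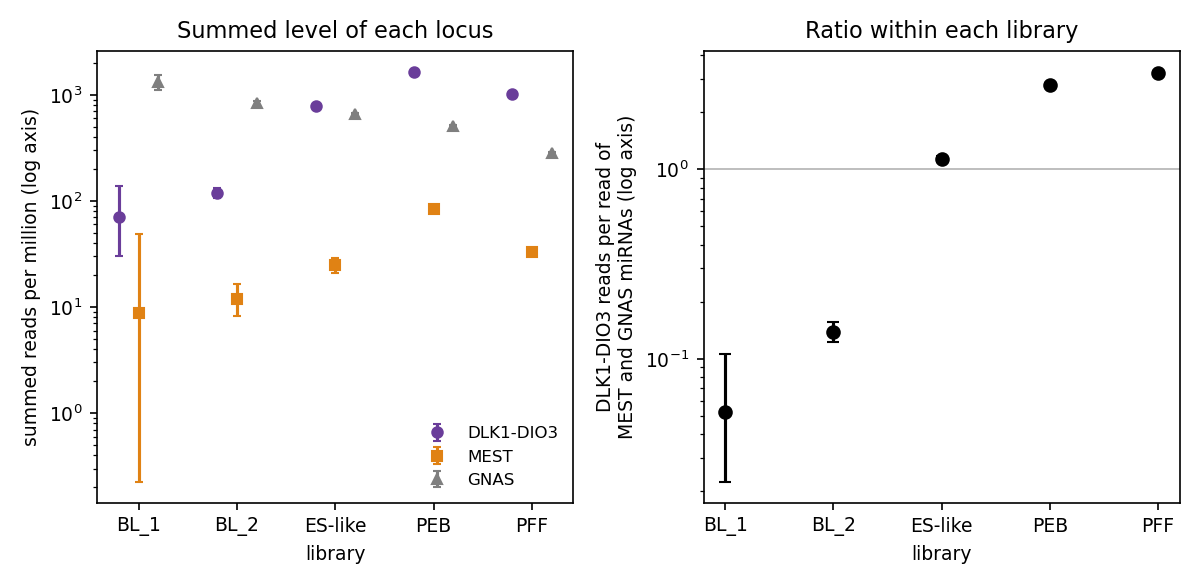
Left, summed level of the DLK1-DIO3, MEST and GNAS miRNAs in each library, in RPM on a log axis. Right, DLK1-DIO3 reads divided by the reads of the MEST and GNAS miRNAs within a library, on a log axis, with a line at equal reads. Bars are exact 95% counting intervals. The ratio is 0.0526 and 0.139 in the BL libraries and between 1.13 and 3.21 in the cultured libraries.

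A ratio within a library does not depend on how libraries are scaled against each other, so maternal loci were set against paternal loci within each library. Maternal and paternal are here labels taken from human and mouse. The BLs, which hold no paternal chromosomes, still had 151 reads of the GNAS miRNAs in BL_1 and 2348 in BL_2. There were 0.0526 maternal reads per paternal read in BL_1 (0.0223 to 0.106) and 0.139 in BL_2 (0.123 to 0.156), with a mean of 0.0956 ± 0.0608 (SD, n = 2). The ratio was 1.13 in ES-like cells (1.09 to 1.18), 2.79 in PEBs (2.73 to 2.86) and 3.21 in PFFs (3.13 to 3.29). All 3 cultured libraries exceeded both BL libraries by more than the spread between BL_1 and BL_2, and the embryos with maternal chromosomes only had the lowest share of reads from maternally read loci. On the paternal side this ratio rested on miR-296-3p. Without the GNAS miRNAs, that is against miR-335 alone, the ratio was 8 in BL_1, where it rested on a single read of miR-335, 10.0 in BL_2, 31.4 for the ES-like library, 19.8 for PEBs and 30.9 for PFFs. The BL libraries remained lowest, but the order of the cultured libraries changed.

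The upstream part of the locus, between MEG3 and the body of RTL1, is represented by the hairpin of miR-493. Its 5p arm had 1 read in BL_1 (8.79 RPM), 12 in BL_2 (4.31 RPM), 163 in ES-like cells (25.6 RPM), 773 in PEBs (48.8 RPM) and 917 in PFFs (33.9 RPM). Its 3p arm had 0 reads in BL_1, 15 in BL_2 (5.39 RPM), 1 in ES-like cells (0.157 RPM), 0 in PEBs and 595 in PFFs (22.0 RPM). The 5p arm was found in all 3 cultured libraries, with PFFs at 1.32 times the ES-like level by RPM and 3.41 times with TMM, whereas the 3p arm was present in PFFs and in BL_2 and nearly missing from ES-like cells and PEBs.

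The share of the 3p arm among reads of both arms makes this contrast plain. It was 55.6% in BL_2 (35.3 to 74.5%) and 39.4% in PFFs (36.9 to 41.9%), against 0.610% in ES-like cells (0.0154 to 3.35%). In PEBs, 0 of 773 reads were of the 3p arm, which allows a share of up to 0.388% at the limit of 3 reads. The intervals of BL_2 and PFFs overlapped, and neither came near those of ES-like cells and PEBs. The hairpin of miR-376a also differed in its arms, with the 3p arm at 2.14% in ES-like cells (0.444 to 6.13%), 2.02% in PEBs (0.975 to 3.69%) and 32.5% in PFFs (18.6 to 49.1%), where it rested on 40 reads of both arms. For miR-296 the 3p arm led everywhere, from 90.3% in PEBs (89.7 to 91.0%) to 99.3% in BL_1 (96.4 to 100%).

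**Figure D2:**
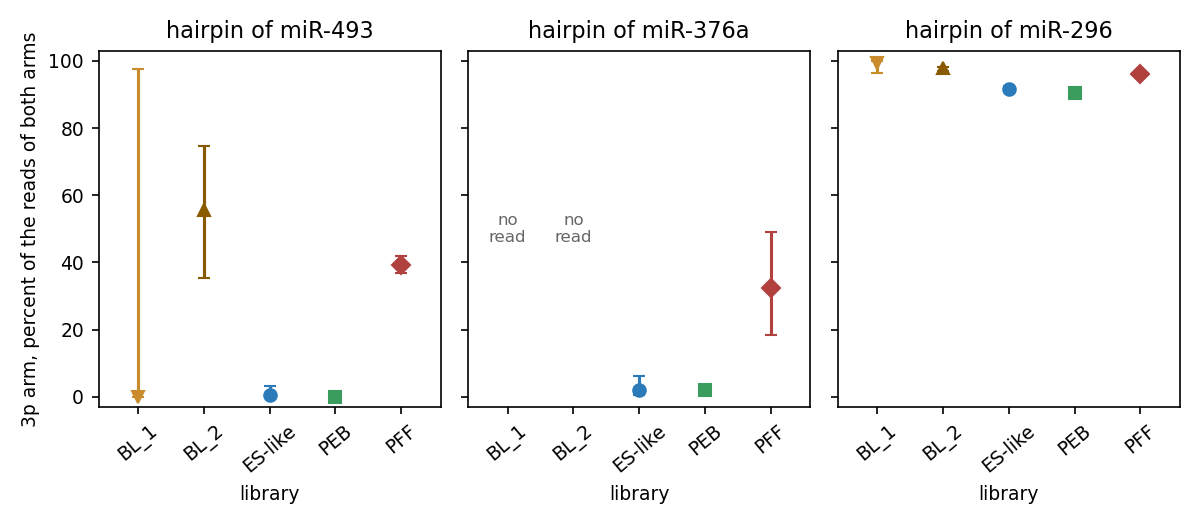
Share of the 3p arm among the reads of both arms of the miR-493, miR-376a and miR-296 hairpins, in percent, in each library, with exact 95% counting intervals. Libraries without a read of either arm are marked. For miR-493, BL_2 and PFFs lie at 55.6% and 39.4%, and ES-like cells and PEBs below 1%.

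The miRNAs antisense to RTL1 are complementary to its messenger RNA, and miR-127 and miR-136 are known to direct its cleavage in the mouse. miR-127 had 0 reads in BL_1, 9 in BL_2 (3.23 RPM), 1194 in ES-like cells (187 RPM), 6438 in PEBs (406 RPM) and 803 in PFFs (29.7 RPM). It was 13.7-fold higher in PEBs than in PFFs (12.7 to 14.8), and the ES-like library exceeded PFFs 6.32-fold (5.77 to 6.92), on the RPM scale. With TMM these ratios were 7.88 and 2.45. miR-136 had no read in either BL library, 480 in ES-like cells (75.3 RPM), 1521 in PEBs (96.0 RPM) and 171 in PFFs (6.32 RPM). Against the level of 3 reads in BL_2, it was at least 69.9-fold higher in ES-like cells and at least 89.0-fold higher in PEBs by RPM, and the lowest such bounds over the 4 scales were 40.3-fold and 59.4-fold. The pair of miRNAs kept the same rank in each cultured library, with 0.402 reads of miR-136 per read of miR-127 in the ES-like library, 0.236 for PEBs and 0.213 for PFFs.

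miR-432, whose hairpin lies between those of miR-127 and miR-136 in the RefSeq order, had the reverse distribution. Its 5p arm had 1 read in BL_1 (8.79 RPM), 30 in BL_2 (10.8 RPM), 0 in ES-like cells, 1 in PEBs (0.0631 RPM) and 922 in PFFs (34.1 RPM). PFFs were at least 72.3-fold higher than ES-like cells, and the ratio of PFFs to PEBs was 540 with a counting interval of 96.6 to 21344. Its 3p arm had 4 reads in BL_2, 6 in PFFs and none in the other libraries. Per read of miR-127 there were 1.15 reads of miR-432-5p in PFFs and 3.33 in BL_2, where the ratio rested on 30 and 9 reads, while PEBs had 1 read of it beside 6438 of miR-127. Neighbouring hairpins of the same transcript thus differed in opposite directions between PFFs and PEBs.

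miR-370, which follows RTL1 in human and mouse, was the DLK1-DIO3 miRNA with most reads in BL_1, BL_2 and PFFs. It had 6 reads in BL_1 (52.8 RPM), 174 in BL_2 (62.5 RPM), 866 in ES-like cells (136 RPM), 3980 in PEBs (251 RPM) and 12158 in PFFs (449 RPM). The counting intervals of the BL libraries overlapped, at 19.4 to 115 RPM and 53.6 to 72.6 RPM. On the RPM scale each cultured library was above both BL libraries, and PFFs were at 1.79 times the level of PEBs (1.73 to 1.85). With TMM this ratio was 3.11.

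The large cluster downstream gives most of the remaining names. miR-382 had 0 reads in BL_1, 35 in BL_2 (12.6 RPM), 1024 in ES-like cells (161 RPM), 7267 in PEBs (459 RPM) and 2526 in PFFs (93.3 RPM). miR-411 had 0 reads in BL_1, 6 in BL_2 (2.16 RPM), 563 in ES-like cells (88.4 RPM), 3452 in PEBs (218 RPM) and 2540 in PFFs (93.8 RPM). Both had their highest level in PEBs, and for miR-411 the ratio of PFFs to ES-like cells was 1.06 by RPM (0.969 to 1.17) but 2.74 with TMM. The next group of the cluster had lower levels in culture. miR-369 had 0 reads in BL_1, 18 in BL_2 (6.47 RPM), 211 in ES-like cells (33.1 RPM), 812 in PEBs (51.2 RPM) and 903 in PFFs (33.4 RPM). miR-323 had 0 reads in BL_1, 17 in BL_2 (6.11 RPM), 143 in ES-like cells (22.4 RPM), 723 in PEBs (45.6 RPM) and 1337 in PFFs (49.4 RPM). For miR-299 there were 0 reads in BL_1, 2 in BL_2 (0.719 RPM), 95 in ES-like cells (14.9 RPM), 345 in PEBs (21.8 RPM) and 322 in PFFs (11.9 RPM). Among miR-369, miR-323 and miR-299, the widest gap between cultured libraries was that of miR-323 between PFFs and ES-like cells, 2.20-fold by RPM (1.85 to 2.63) and 5.67-fold with TMM. BL_2 was below each cultured library for all 3.

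miR-758 and the miR-376 hairpins departed from that pattern in opposite directions. miR-758 had 0 reads in BL_1, 8 in BL_2 (2.88 RPM), 13 in ES-like cells (2.04 RPM), 74 in PEBs (4.67 RPM) and 4257 in PFFs (157 RPM). Its level in PFFs was 33.7 times that in PEBs (26.8 to 43.0) and 77.1 times that in ES-like cells (45.0 to 145) by RPM, and 58.5 and 199 times with TMM. The miR-376 hairpins are known as targets of adenosine-to-inosine editing in human and mouse tissues. miR-376a-5p had no read in BLs, 137 in ES-like cells (21.5 RPM), 484 in PEBs (30.5 RPM) and 27 in PFFs (0.997 RPM). miR-376c had no read in BLs, 63 in ES-like cells (9.89 RPM), 260 in PEBs (16.4 RPM) and 25 in PFFs (0.923 RPM). By RPM, PEBs were 30.6 times as high as PFFs for miR-376a-5p (20.8 to 46.9) and 17.8 times for miR-376c (11.8 to 28.0). With TMM these ratios were 17.6 and 10.22.

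The remaining 6 names stayed under 100 reads in every library. miR-376a-3p, miR-487b, miR-381 and miR-432-3p had at most 13, 18, 7 and 6 reads, each in PFFs, the deepest library. miR-376b had a single read, in PEBs, and miR-494 had none.

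**Figure D3:**
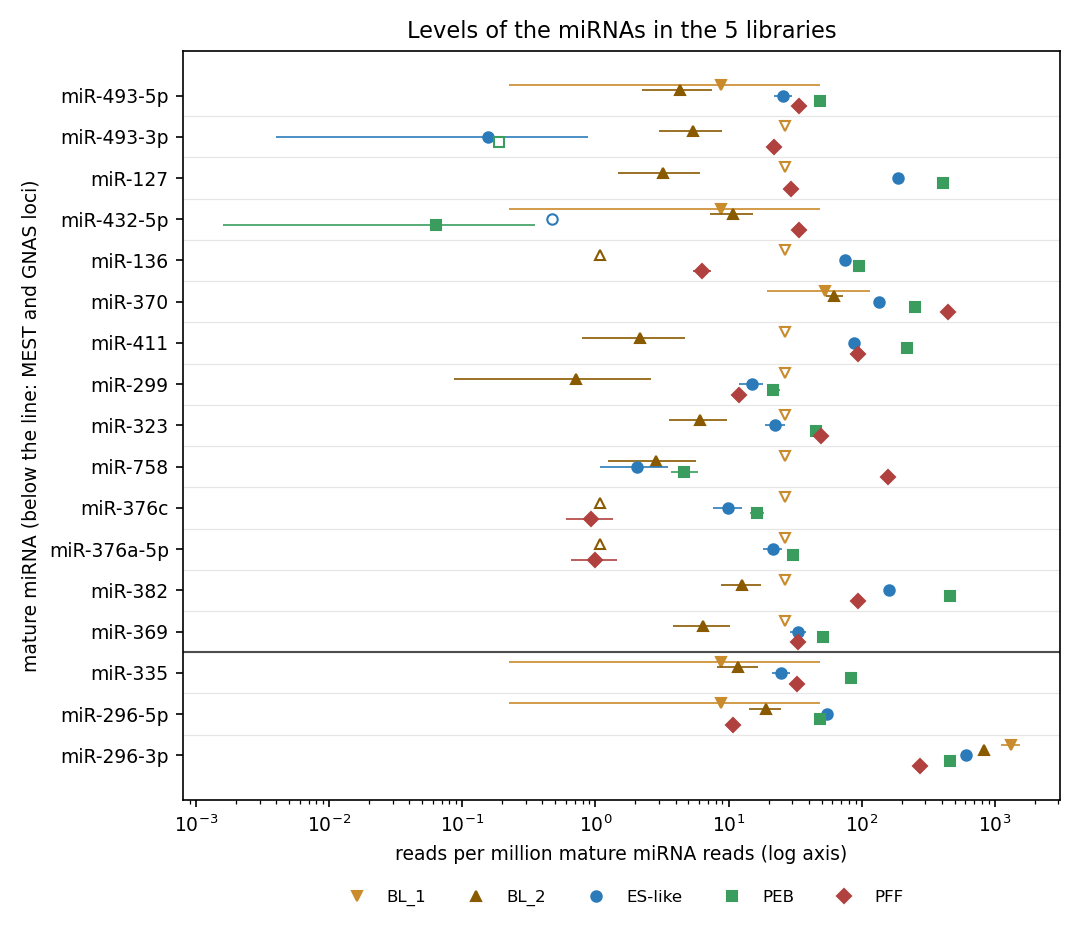
Level of each of the 17 miRNAs with at least 100 reads in a library, in RPM on a log axis, in the 5 libraries. Filled symbols are measured levels with exact 95% counting intervals, and open symbols mark the level of 3 reads in a library without a read. miR-432-5p, miR-493-3p, miR-758, miR-370 and miR-323 have their highest measured level in PFFs. Lowest in PFFs, among the cultured libraries, are miR-127, miR-136, miR-376a-5p, miR-376c, miR-382, miR-299 and both arms of miR-296.

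In the make-up of the DLK1-DIO3 reads, which is independent of scaling between libraries, BL_2 was nearest to PFFs and ES-like cells were nearest to PEBs. miR-370 made up 52.7% of these reads in BL_2 (47.2 to 58.2%) and 44.1% in PFFs (43.5 to 44.7%), against 17.5% in ES-like cells (16.4 to 18.6%) and 15.2% in PEBs (14.8 to 15.7%). The RTL1-antisense names miR-127, miR-136 and miR-432 together made up 13.0% in BL_2 and 6.90% in PFFs, against 33.8% in ES-like cells and 30.4% in PEBs. The large cluster had another order, with 26.1% in BL_2, 43.5% in PFFs, 45.5% in ES-like cells and 51.4% in PEBs. miR-382 and miR-370 stood at 0.201 reads of the former per read of the latter in BL_2 and at 0.208 in PFFs, while the ratio was 1.18 in ES-like cells and 1.83 in PEBs. The share of reads that would have to be assigned to other names to turn one make-up into the other was 9.56% between ES-like cells and PEBs and 22.1% between BL_2 and PFFs. It was 49.4% between ES-like cells and PFFs, 52.3% between PEBs and PFFs, 56.1% between BL_2 and ES-like cells and 59.9% between BL_2 and PEBs. PEBs were made from the ES-like cells and are not an independent line, and the 8 reads of BL_1 were too few for such a comparison. Markers of other cell types differed between the same libraries. The liver miRNA miR-122 stood at 101007 RPM in ES-like cells and 54099 RPM in PEBs, against 1767 RPM in BL_1, 837 RPM in BL_2 and 4.14 RPM in PFFs. Of an epithelial list of 6 names, 2 had a row, of which miR-429 stood at 1199 RPM in ES-like cells and 718 RPM in PEBs, against 23.4 RPM in BL_2 and 0.0739 RPM in PFFs, while miR-205 was highest in BL_2, at 5754 RPM. The 4 names of a skeletal muscle list summed to 1073 RPM in BL_1, 2445 RPM in BL_2 and 1019 RPM in PFFs, against 191 RPM in ES-like cells and 550.6 RPM in PEBs. miR-1 was the largest part of each of these sums. miR-206 had 0 reads in PFFs, against 20.09 RPM in ES-like cells, and miR-133b had its highest measured level in ES-like cells, at 3.45 RPM. The part of these markers in the make-up was not tested.

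**Figure D4:**
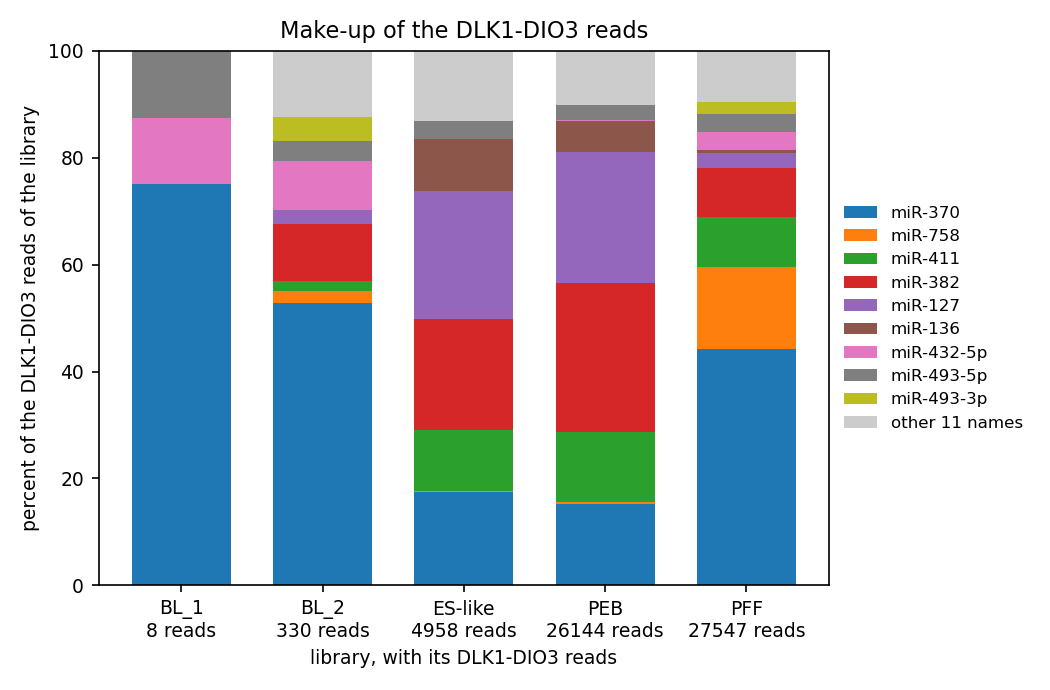
Make-up of the DLK1-DIO3 reads of each library in percent, with the number of these reads under each bar. miR-370 takes 52.7% in BL_2 and 44.1% in PFFs, and miR-127, miR-136 and miR-382 take larger parts in ES-like cells and PEBs.

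PEBs were compared with the ES-like cells they came from, with a 2-fold threshold on RPM. The study set such a threshold on levels normalised by Tag Count Comparison, which was not repeated here. Of the 13 DLK1-DIO3 names with at least 10 reads in either library, 5 were more than 2-fold higher in PEBs and 0 were more than 2-fold lower, against 20.4% and 23.5% of 285 miRNAs. Their median log2 ratio was 0.89, and that of the 285 miRNAs was -0.19. The 5 names were miR-382 at 2.85 times (2.67 to 3.05), miR-411 at 2.47 times (2.25 to 2.70), miR-758 at 2.29 times (1.26 to 4.50), miR-127 at 2.17 times (2.04 to 2.31) and miR-323 at 2.03 times (1.70 to 2.45). The paternally read miR-335 was higher as well, at 3.36 times (2.85 to 3.99), and miR-296-3p stood at 0.755 times its level in ES-like cells by RPM and at 1.12 times with TMM. With TMM, 11 of the 13 names were more than 2-fold higher, at a median log2 ratio of 1.45 against 0.38 for the 285 miRNAs, of which 32.6% were higher and 11.2% lower on that scale. The mesenchymal list had 58017 RPM in ES-like cells and 131752 RPM in PEBs, the skeletal muscle list 191 and 550.6 RPM, the 6 names of a blood list 62.3 and 94.8 RPM, and the 4 names of a neural list 10221 and 8266 RPM. Within the skeletal muscle list, miR-1 had 155 and 503 RPM and miR-133a-3p 12.6 and 26.6 RPM. By contrast, miR-133b had 3.45 and 1.20 RPM, and miR-206 had 20.09 and 20.00 RPM. Within the neural list, miR-9 had 730 and 3373 RPM, but miR-128 had 9488 and 4890 RPM. Of the epithelial names, miR-205 had 21.03 and 71.68 RPM, but miR-429 had 1199 and 718 RPM, and their sum was 1220 and 789 RPM. Within the blood list, miR-142-3p, miR-142-5p and miR-486 were higher in PEBs, and miR-144, miR-150 and miR-451 were lower. The part of these markers in this difference was not tested.

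PFFs were compared with PEBs in the same way. Of 16 DLK1-DIO3 names, 4 were more than 2-fold higher in PFFs and 6 more than 2-fold lower, against 16.6% and 44.7% of 295 miRNAs, shares that are not far from those of the names. The 4 higher names were miR-758, miR-432-5p, miR-493-3p and miR-487b, and the 6 lower ones were miR-127, miR-136, miR-376a-5p, miR-376c, miR-382 and miR-411. With TMM 5 were higher and 5 lower, against 27.1% and 34.2% of the 295, as miR-370 joined the higher names and miR-411 left the lower ones. The sum over the locus was 1.62 times as high in PEBs as in PFFs by RPM, but this direction turned when libraries were scaled in another way. ssc-miR-21 alone took 52.3% of the reads of PFFs and 18.9% of those of PEBs. The log2 ratio of PFFs to PEBs was -0.70 by RPM, 0.10 with TMM, 0.29 with the size factors of DESeq2 and 0.069 with the leading miRNA of every library left out of its total. Which of PFFs and PEBs had more DLK1-DIO3 miRNA is therefore not settled by these libraries, whereas the order of BLs, ES-like cells and both of these was the same on the 4 scales.

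**Figure D5:**
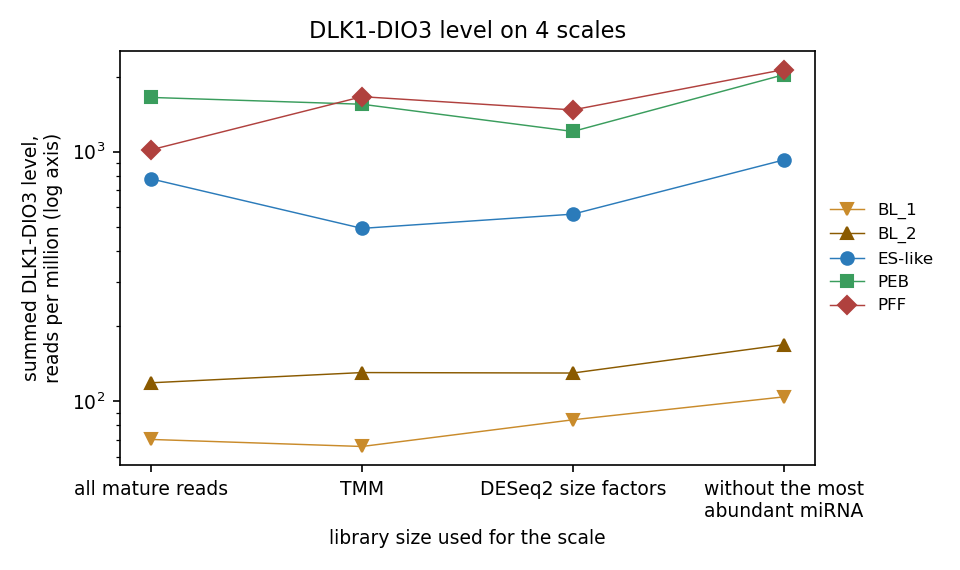
Summed DLK1-DIO3 level in RPM, on a log axis, on 4 scales, with lines joining the values of a library. By all mature reads PEBs lie above PFFs (1650 against 1018), and on the other scales PFFs lie above PEBs (1661 against 1549 with TMM), while both BL libraries stay lowest.

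PFFs and ES-like cells differed in 9 of 16 DLK1-DIO3 names by more than 2-fold, with 5 higher in PFFs and 4 lower, against 16.8% and 51.0% of 292 miRNAs. The 5 were miR-758, miR-432-5p, miR-493-3p, miR-370 and miR-323, and the 4 were miR-127, miR-136, miR-376a-5p and miR-376c. Their median log2 ratio was 0.06, beside -1.02 over the 292 miRNAs. These counts are those by RPM. With TMM 11 names were higher and 4 lower, against 39.0% and 28.8% of the 292, at a median of 1.42 beside 0.34, and with DESeq2 size factors 10 were higher and 4 lower, against 32.5% and 34.2%.

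Each cultured library was also set against both BL libraries, each of which had to differ by more than 2-fold. In ES-like cells 5 of 14 DLK1-DIO3 names were higher, against 35.8% of 293 miRNAs. In PEBs 5 of 15 were higher, against 33.3% of 297 miRNAs. In both, the 5 were miR-127, miR-136, miR-370, miR-382 and miR-411. In PFFs 4 of 16 were higher, miR-370, miR-382, miR-411 and miR-758, against 20.0% of 295 miRNAs. A lower call needed 3 reads in both BL libraries, which 1 DLK1-DIO3 name had, miR-370, so the shares of all miRNAs called lower, 15.7%, 17.2% and 24.7% in the same order, cannot be set against these names. Compared with BL_2 alone, miR-432-5p was at least 22.9-fold lower in ES-like cells, and its ratio of BL_2 to PEBs was 171 (28.4 to 6972, on 1 read in PEBs). miR-493-3p was at least 28.5-fold lower in PEBs than in BL_2, and its ratio of BL_2 to ES-like cells was 34.4 (5.29 to 1446, on 1 read in ES-like cells). The shares of higher names were close to the background in each comparison by RPM, but the depth of BL_1 limited them. To be called, a name had to be more than 2-fold above 26.4 RPM, the level of 3 reads in BL_1. By RPM, each DLK1-DIO3 name past that bound in a cultured library was called there. The shares therefore cannot be read as a likeness of these names to all miRNAs. With TMM 3 of 14, 5 of 15 and 8 of 16 names were higher, against 24.2%, 31.6% and 26.8% of all. Of the other loci, by RPM, miR-296-5p was higher in ES-like cells, miR-335 was higher in PEBs and miR-296-3p was lower in PFFs. With TMM miR-296-5p did not pass, miR-335 passed as higher in PEBs and PFFs, and miR-296-3p passed as lower in each cultured library.

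Cell type-specific miRNAs were taken, on RPM, as those more than 2-fold above every other cell type, with BLs as the mean of both libraries. By this rule 4 of the 19 members with at least 10 reads in a library passed in PEBs, where 6.23% of 305 miRNAs did. They were miR-127, miR-382, miR-411 and miR-335. In PFFs miR-758 passed, with 4.92% of all, and no member passed in BLs or ES-like cells, where 20.7% and 9.18% of all did. Leaving out BL_1, in which 3 reads already equal 26.4 RPM, added miR-432-5p and miR-493-3p to PFFs. The share of all miRNAs that passed in PFFs without BL_1 is not given here, so this gain cannot be set against a background. With TMM, miR-370 joined miR-758, miR-432-5p and miR-493-3p in PFFs, miR-296-3p passed in BLs, and PEBs had miR-127, miR-382 and miR-376a-5p, where 31, 66 and 18 of the 305 passed in PFFs, BLs and PEBs.

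The BL libraries were tested against the 3 cultured libraries with edgeR, which asks whether parthenogenetic embryos differ from cells in culture by more than the spread within these groups. The cultured libraries are of different cell types, so that spread includes cell type, and the p-values measure only the spread between these libraries. Of the 18 members tested, miR-411 passed at an adjusted p under 0.05, higher in culture, where 5.57% of 287 miRNAs passed in that direction. No member passed as lower in culture, where 6.27% of the 287 did. Its log2 fold change was 6.10 ± 1.26 (SE), higher in 3 of 3 cultured libraries than in either BL library, with an adjusted p = 0.0311 by edgeR's quasi-likelihood test, and from 3.3e-05 to 0.168 over the alternatives. Next by edgeR adjusted p were miR-127 at 0.0521 (log2 fold change 5.99 ± 1.51), miR-136 at 0.0602, and miR-382 (4.61 ± 1.34) and miR-299 (4.51 ± 1.31), both at 0.0642. The fitted value of miR-136, without a read in BLs, is no measure of its size. The members with fewer than 10 reads in both BL libraries entered the test through the cultured libraries alone, so their fitted direction carries no weight of its own. miR-411, with 0 and 6 reads in BLs, and miR-127, with 0 and 9, are among them. Both arms of miR-296 and miR-335 did not pass, with edgeR adjusted p-values of 0.151 for miR-296-3p (log2 fold change -1.35 ± 0.61), 0.410 for miR-296-5p and 0.182 for miR-335. No member passed without BL_1, BL_2, the ES-like cells or the PEBs, and 7 of 15 members passed without PFFs, where 118 of 280 miRNAs did.

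Without regard to a test, the level in each cultured library was above both BL libraries, with libraries below 3 reads set to 3 reads, for miR-127, miR-369, miR-370, miR-382 and miR-411. These were 5 of 19 members, against 24.9% of 305 miRNAs, which is close to the background. The depth of BL_1 limits this count, since a member at less than 26.4 RPM in any cultured library could not pass.

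The pluripotent libraries of the study (BL_1, BL_2 and ES-like cells) were also compared with the differentiated libraries (PEBs and PFFs). edgeR called 0 of 287 miRNAs in either direction, with 27 at an unadjusted p under 0.05, and DESeq2 called 13. Among the members, miR-758 (log2 fold change 6.07 ± 1.91, edgeR adjusted p = 0.405) and miR-370 (2.82 ± 1.00, edgeR adjusted p = 0.405) had an unadjusted p under 0.05, both higher in the differentiated libraries, where 5.92% of the 287 did so, and DESeq2 called miR-758. For miR-758 the level in PEBs was 4.67 RPM and that in PFFs 157 RPM, so that the fitted change of the differentiated libraries came mostly from PFFs.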

How the data were processed

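The authors left out reads without adapter or shorter than 17 bases, trimmed with Cutadapt 1.10, aligned with Bowtie 1.1.1 to Sscrofa10.2 and counted miRNAs of miRBase release 21 with miRDeep2. In the table deposited for known miRNAs the values are raw counts, and each column was assigned to its library by the name in the sample title. Counts were summed over precursors of a mature name. No member had more than 1 precursor, and the row of ssc-miR-369, which occurs a second time with identical counts, was counted once. Members and lists were chosen with earlier results of these data known, and the repeated row with both copies counted was an alternative added after seeing the data. The table of predicted miRNAs was not used here. Every member with at least 100 reads in a library is given with its value in each library, and the others by counts. A second list of 17 further DLK1-DIO3 names had 0 names with a row.

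The study normalised its counts with Tag Count Comparison before its 2-fold comparisons, which was not repeated here, so that lists by the rule can differ from its own. In the 2-fold rule used here, miRNAs with at least 10 reads in a library compared were used, values under 3 reads were set to 3 reads, and the higher side needed 3 reads in each of its libraries (for BL as a mean, in either). In comparisons of BL with a single cultured library, both BL libraries had to pass. The quasi-likelihood test of edgeR 4.0.16 was run in R 4.3.3 on miRNAs with at least 10 reads in at least 2 libraries, with TMM scaling and p-values adjusted by Benjamini and Hochberg over all of them at a threshold of 0.05, with DESeq2 1.42.0 as an alternative. On simulated counts of 287 miRNAs with a log2 change of 4 in 50, the comparison of BL with cultured libraries recovered 46 at a dispersion of 0.05 and 6 at the fitted dispersion of 0.782, and that of pluripotent with differentiated libraries 47 and, at the fitted 1.32, 0. Alternatives were other scales, filters, thresholds, the largest precursor row and the omission of libraries. The SE given with an edgeR log2 fold change is that change, without its sign, divided by the square root of its F statistic. It is not an error reported by the fit. Intervals are exact binomial, and those of ratios were derived from them. Python 3.11.15, pandas 2.3.3 and scipy 1.17.1 were used.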

Additional observations from a re-analysis of the deposited data

How the results depend on the processing

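The depth of BL_1 and the single libraries of 3 cell types were among the limits. No paired analysis was possible because only BLs had more than 1 replicate number.

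The log2 ratio of the summed DLK1-DIO3 level of PEBs to ES-like cells was 1.08, and 1.65 with TMM, 1.13 without the most abundant miRNA and 1.21 with the largest precursor row. That of PFFs to PEBs was -0.70, -0.91 with the largest precursor row, and turned to 0.10 with TMM, 0.29 with DESeq2 size factors and 0.069 without the most abundant miRNA. That of PFFs to ES-like cells was 0.39, and 1.75, 1.39, 1.20 and 0.30 under TMM, DESeq2 size factors, no most abundant miRNA and the largest precursor row. That of ES-like cells to BL_2 was 2.71, and 1.92, 2.11 and 2.46 under the first 3 of these. The scale alone sets these shifts. Without the most abundant member of each side, there were 1, 1.81, 7.44, 9.0 and 13.0 maternal reads per paternal read in BL_1, BL_2, ES-like cells, PEBs and PFFs, and without the GNAS miRNAs 8, 10.0, 31.4, 19.8 and 30.9. With both copies of the repeated row, the ratio was 1.18, 2.88 and 3.31 in ES-like cells, PEBs and PFFs. The BL libraries had the lowest ratio in each case, but BL_1 adds little here. It had 8 maternal reads, 6 of them of miR-370, and 152 paternal reads, 150 of them of miR-296-3p. Its ratios without members therefore rest on very few reads.

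Members specific to PEBs numbered 4 (of 19 miRNAs in all), and 2 (of 12) with DESeq2 size factors, 2 (of 14) without the most abundant miRNA and 0 at a 4-fold threshold. Those specific to PFFs numbered 1 (of 15), and 4 (of 31) with TMM, 4 (of 33) with DESeq2 size factors, 3 (of 26) without the most abundant miRNA and 3 with a pseudocount of 1 RPM, and from 1 to 3 without either BL library. Those specific to BLs numbered 0 (of 63), and 1 (of 66) with TMM, 1 (of 73) with DESeq2 size factors, 1 (of 64) without the most abundant miRNA and 1 without a read filter, and from 0 to 1 without either BL library. For the 4-fold threshold, the pseudocount, the missing read filter and the omission of a BL library, the number of all miRNAs that passed is not given here. Those counts of members therefore cannot be set against a background.

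In the test of BLs against cultured libraries, edgeR called 1 member and 34 miRNAs. Members called numbered 3 with RLE scaling, 2 without scaling, 3 without a filter, 2 with the largest precursor row and 6 with DESeq2, out of 46, 44, 51, 40 and 97 miRNAs called. Without single libraries the counts ran from 0 to 7 members and from 0 to 118 miRNAs: 0 miRNAs without BL_1, 0 without BL_2, 15 without ES-like cells, 1 without PEBs and 118 without PFFs. The cause was not tested. In that of pluripotent against differentiated libraries, DESeq2 called 1 member and 13 miRNAs against 0 and 0. Omission of BL_1 or of BL_2 gave 0 members and 0 miRNAs, and omission of ES-like cells gave 0 members and 15 miRNAs. Without ES-like cells both tests set BLs against PEBs and PFFs, so their values are those of the same fit and not a separate result. Fitted log2 fold changes against BLs changed sign for miR-296-5p (-0.021, and up to 1.98 without other libraries) and miR-432-5p (-0.15, up to 1.36) without BL_1, for miR-376a-3p (-0.32) with DESeq2 and for miR-758 (-0.55, up to 12.89) without PFFs. In the other test they did so without PEBs for miR-136 (-0.74, up to 11.78 without other libraries), miR-296-5p (-0.33, up to 0.89), miR-376a-5p (-1.73, up to 10.05) and miR-376c (-0.84, up to 9.21), and for miR-296-5p (-0.33) without BL_1. None of these was called. Of 207 refitted values in each test, 182 and 201 kept their direction and side of the threshold.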
